A study of Mus musculus with 9 samples.

Results

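Plasmacytoid dendritic cells were selected from a single-cell RNA survey of mouse knee joints by the transcripts each cell held. A cell was taken when it had at least 1 count of Siglech and at least 2 counts of Siglech, Tcf4, Irf8 and Ly6d together. It also had to have no count of the B-lineage genes Cd79a, Vpreb1 and Igll1, and fewer than 5 counts of the granule proteases Mpo, Elane, Prtn3 and Ctsg. The rule kept 221 of 16751 cells. Whole left joints of 9 female 129/Sve mice, 8 weeks old, had been profiled with Seq-Well, in which single cells and barcoded beads share small wells and polyadenylated RNA is read from its 3' end. The 5 sick mice (numbers 1, 3, 4, 5 and 6) had been presensitized to mBSA, methylated bovine serum albumin, and had arthritis triggered with that antigen. The 4 healthy mice (numbers 1 to 4) had been injected with 20 µL of phosphate-buffered saline, and all joints were taken 1 week afterwards. The model is an acute arthritis of a single joint and antigen, and a whole joint includes marrow, bone, muscle and blood beside the synovium.

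Plasmacytoid dendritic cells are a rare lineage that forms in the bone marrow and circulates in blood. They carry the RNA-sensing receptor TLR7 and the DNA-sensing receptor TLR9 in endosomes, and on engagement these signal through MyD88 and IRF7 to release large amounts of type I interferon. TCF4 sets and keeps the lineage, IRF8 is shared with other dendritic cells, SIGLECH is a surface lectin that signals through the adaptor DAP12, and BST2 (tetherin, the PDCA-1 antigen) is both a marker of the lineage and a gene that interferon raises in many cells.

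Gated cells numbered 28, 51, 20, 43 and 35 in sick mice 1, 3, 4, 5 and 6, against 15, 4, 14 and 11 in healthy mice 1, 2, 3 and 4. Healthy mouse 2, with 4 cells, was left out of all comparisons of genes, which therefore set 5 sick against 3 healthy mice. Summed counts of the gated cells ran from 22457 to 47506 in those sick mice and from 11240 to 19051 in those healthy mice. The median gated cell had 793 counts and 422 genes, against 892 counts and 347 genes in the remaining cells. Every gated cell held at least 1 count of S100a8 or S100a9 and at least 1 of haemoglobin, as did 99.8% and 99.95% of the remaining cells. A count of neutrophil or erythroid RNA therefore did not separate gated from other cells. Whether that RNA was free RNA or came from doublets was not tested. Of 16743 barcodes, 8 occurred in more than 1 mouse, and 1 gated cell had such a barcode. The labels give no sequencing batch, so a batch that followed the groups cannot be told apart from them.

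Of 347 cells with a count of Siglech, 103 had no further count of the gate genes and were left out, 17 had B-lineage genes and 7 had granule proteases, 1 of them both, and these were left out too. Among the 221 gated cells all 4 gate genes were detected in 23, 3 of them in 75, 2 of them in 99, and Siglech alone in 24. Cells just inside the threshold (a sum of 2, 55 cells) made up 10 of the 14 gated cells of healthy mouse 3 and 0 of the 15 of healthy mouse 1. Bst2, which the gate did not use, had a count in 63.3% of the 166 cells with a sum of 3 or more and in 36.4% of the 55 cells just inside. It had a count in 13.8% of the 87 cells just outside (Siglech 1 and a sum of 1) and in 4.38% of all other cells. Median depth was 773, 825, 833 and 891.5 counts in these 4 classes, and median genes were 444, 388, 322 and 347. Runx2, Rnase6 and Cox6a2 had the same order over the classes, and so did Ccr9, the gut-homing chemokine receptor of the lineage, at 11.4%, 5.45%, 3.45% and 0.195%. The 17 cells left out for B-lineage genes, with a median of 1805 counts, had Bst2 in 47.1% and Ccr9 in 17.6%, and the 7 left out for granule proteases, with a median of 3183 counts, had each in 14.3%.

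**Figure D1:**
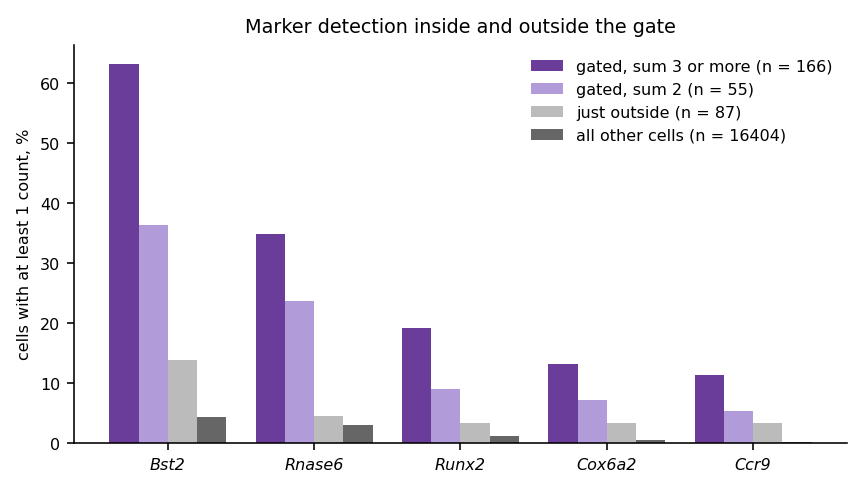
Percent of cells with at least 1 count (y axis) of 5 markers that the gate did not use, for gated cells with a gate sum of 3 or more, gated cells with a sum of 2, cells just outside the gate and all other cells. Detection of Bst2 is 63.3%, 36.4%, 13.8% and 4.38% in these classes, and the other 4 genes have the same order.

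The label was checked against 34 markers of plasmacytoid dendritic cells outside the gate. All 34 had a higher mean CPM (a gene's summed counts scaled to the same total in every sum) in gated than in remaining cells, where 62.4% of all genes with a count in gated cells did. Of the 34, 31 were at least 2-fold higher (background 27.2%) and 8 were higher in each of the 8 mice (background 0.62%). A gated cell held a median of 5 of these markers, against 1 in the remaining cells, 1 in early B-lineage cells and 2 in classical monocytes, the last pair taken by gates of their own without Siglech (357 cells by Cd79a, Vpreb1 and Igll1, and 1367 by F13a1, Ccr2, Ms4a6c and Csf1r). Because the gate separated the cells by related transcripts, these values describe them and were not tested. Lists of other lineages are given next, to be read beside the same shares over all genes (62.4% higher, 27.2% at least 2-fold higher). Those shares are over genes with a count in gated cells, so they compare with the members that had counts. Counts near those shares do not set a list apart. Of 16 conventional dendritic cell genes 11 had counts in gated cells, 9 had a higher mean CPM there than in remaining cells and 7 were at least 2-fold higher. Out of the 11 with counts, both numbers lie above the shares over all genes, so this list was raised in gated cells. Xcr1 and Clec9a, which define a subset of those cells, were among the members with no count in gated cells. In the remaining cells of every mouse they were at 1.12 CPM or less, so their absence says little. Of 12 early progenitor genes 10 had counts, 8 were higher in gated than in remaining cells and 3 at least 2-fold higher. The 8 of 10 lie above the share of 62.4%. Of 14 genes of fibroblasts, osteoblasts and muscle 13 had counts, 8 were higher and 5 at least 2-fold higher. Of the 515 counts of those 14 genes in sick mouse 4, 509 lay in 1 gated cell. Of 18 early B-lineage genes 12 had counts, 7 were higher and 4 at least 2-fold higher, although the gate asked for no count of 3 of the 18. Of 16 T and NK cell genes 6 had counts, 3 were higher and 2 at least 2-fold higher, and Cd3e and Trbc1 were among those with no count. Of 13 macrophage genes 7 had counts and 1 was higher, and C1qa and Mertk were among those with no count. Markers of classical monocytes, neutrophils and granulocyte progenitors were higher in gated cells in 1 of 13, 0 of 15 and 0 of 8 genes.

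Among genes with at least 100 CPM in gated cells that were higher there in each of the 8 mice, Cd7, an immunoglobulin-family surface protein of lymphoid cells, had the largest ratio. It averaged 155 ± 64.9 CPM in gated cells and 5.50 ± 2.59 CPM in the remaining cells (SD over 8 mice each, 28.1-fold). Bst2 followed with 859.5 ± 319 CPM in gated cells and 40.4 ± 24.3 CPM in the remaining cells (21.3-fold). Runx2, a transcription factor that promotes the exit of these cells from marrow, averaged 236 ± 72.6 CPM in gated cells and 12.2 ± 3.98 CPM in the remaining cells. These 3 genes had ranges over mice that did not overlap between gated and remaining cells.

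Other lineage regulators were in the same set of 20. Bcl11a, which acts upstream of TCF4 in this lineage, averaged 203 ± 65.4 CPM in gated cells and 32.6 ± 8.19 CPM in the remaining cells, and Mef2c, a transcription factor of lymphoid and dendritic progenitors, 358 ± 163 CPM in gated cells and 63.4 ± 8.77 CPM in the remaining cells. Ifnar2, a chain of the type I interferon receptor, averaged 209 ± 105 CPM in gated cells and 36.9 ± 12.8 CPM in the remaining cells. Il7r, the interleukin-7 receptor chain of lymphoid progenitors, averaged 170.3 ± 86.5 CPM in gated cells and 21.6 ± 5.82 CPM in the remaining cells, and early B-lineage cells reached 155 CPM of it. Mpeg1, a pore-forming protein of phagocytes, averaged 743 ± 520.1 CPM in gated cells and 84.7 ± 26.3 CPM in the remaining cells, with 419 CPM in classical monocytes. The remaining members were Fyn, Rnase6, Gpr171, Coro2a, Tubgcp5, Atp1b1, St8sia4, Tsc22d1, Nucb2, Gm26778, Rell1 and Ptms, with ratios of 5.06 to 15.6.

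**Figure D2:**
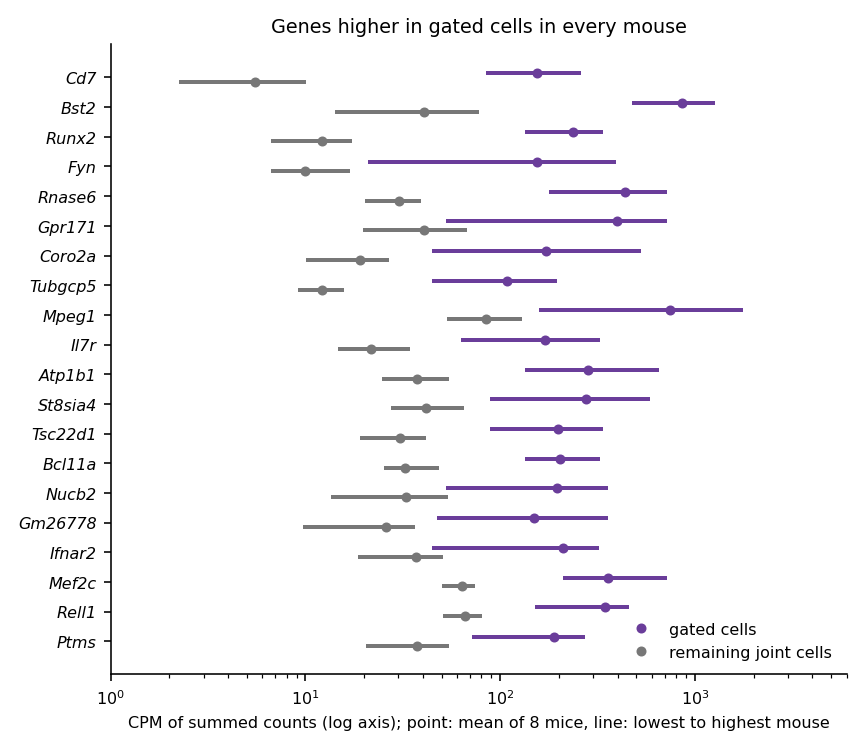
Mean CPM over 8 mice (points) and range over mice (lines) of 20 genes in gated and in remaining joint cells, on a log axis. Cd7, Bst2 and Runx2 have the largest ratios, and each gene was higher in gated cells in all 8 mice, which the choice of genes required.

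Of the gate genes themselves, described without a test, Siglech and Tcf4 varied more among healthy than among sick mice. Siglech stood at 1910.4, 2294, 2048, 1914 and 1566 CPM in sick mice 1, 3, 4, 5 and 6, against 2605, 1049.8 and 2046 CPM in healthy mice 1, 3 and 4. Tcf4 stood at 1124, 1242, 757, 796 and 688 CPM in sick mice 1, 3, 4, 5 and 6, against 2018, 315 and 889.7 CPM in healthy mice 1, 3 and 4. Healthy mouse 1 was the highest mouse for both genes and healthy mouse 3 the lowest. Irf8 had similar SDs of 504 CPM in sick and 553 CPM in healthy mice, and sick mouse 1 was highest (1948 CPM). Ly6d had SDs of 388 CPM in sick and 546 CPM in healthy mice, and sick mouse 3 was highest (1179 CPM). Summed CPM of the 34 other markers was 4497 to 9852 summed CPM in sick mice, against 2992 to 9506 in healthy mice, and healthy mouse 1 (9506) stood far above healthy mice 3 (2992) and 4 (3737). Haemoglobin took 10.4% of gated counts in healthy mouse 1, against 34.6% and 34.1% in healthy mice 3 and 4, and 9.09% to 27.4% in the sick mice.

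The first comparison asked whether the share of these cells differed between sick and healthy joints. Gated cells made up 1.34%, 1.32%, 1.43%, 1.90% and 1.35% of the cells of sick mice 1, 3, 4, 5 and 6, against 1.43%, 0.456%, 1.00% and 0.899% in healthy mice 1, 2, 3 and 4. Healthy mouse 1 lay within the sick range and the other 3 healthy mice below it. The means were 1.47% ± 0.244 in sick mice (SD, n = 5) and 0.946% ± 0.399 in healthy mice (SD, n = 4). The difference of 0.522 percentage points had a two-sided exact permutation p of 0.0635, which did not pass 0.05 (the smallest p of the 126 splits is 0.0159). Exact 95% binomial intervals, which cover counting error only, reached from 0.124% to 1.16% in healthy mouse 2 and from 1.38% to 2.55% in sick mouse 5. The direction depended on the cells counted: among cells with at least 400 genes the difference was -0.0614 percentage points (exact permutation p = 0.889). Among cells with under 15% mitochondrial plus ribosomal RNA-like counts it was 0.653 (exact permutation p = 0.0159), and without healthy mouse 1 it was 0.683 (exact permutation p = 0.0357).

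**Figure D3:**
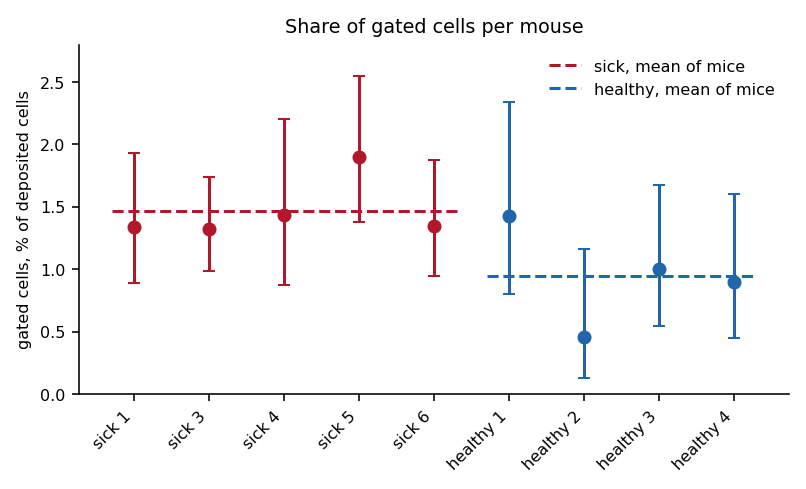
Gated cells as a percent of all deposited cells (y axis) in each of 5 sick and 4 healthy mice, with exact 95% binomial intervals and the mean of each group as a dashed line. The sick mice sit between 1.32% and 1.90%, and healthy mouse 1, at 1.43%, lies within that range.

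Measures of RNA quality differed in mean between the groups. Mitochondrially encoded transcripts took 5.47% ± 1.45 of gated counts in sick mice (SD, n = 5) and 11.2% ± 2.10 in healthy mice (SD, n = 3; exact permutation p = 0.0357, the smallest possible, adjusted over 5 measures 0.179). Ribosomal RNA-like transcripts took 1.42% and 3.77% (exact permutation p = 0.0714, adjusted 0.179). Median counts (836 and 807 per cell) and median genes (419.8 and 376) differed by less than the spread between mice. None of the 5 measures passed after adjustment. The part of RNA quality in the differences of genes given next was not tested.

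The second comparison asked which genes differed between sick and healthy mice within the gated cells. After the filter on low counts 235 genes could be tested on counts summed per mouse, and edgeR's quasi-likelihood test with Benjamini-Hochberg adjustment called 17 of them (7.23%): 5 higher (2.13%) and 12 lower (5.11%) in sick mice. The 5 that rose were an interferon-stimulated gene, a classical MHC class I gene and 3 genes abundant in neutrophils or other myeloid cells. The 12 that fell were 7 mitochondrially encoded genes, the 3 transcripts Mir6236, Gm42418 and CT010467.1, and the proliferation genes Top2a and Mki67. With DESeq2's size factors in the same test the split was 1 higher and 12 lower, and with mitochondrial, ribosomal RNA-like and haemoglobin genes left out it was 1 higher and 6 lower. With no filter on low counts it was 15 higher and 0 lower, with 4 genes shared with the 17, and in cells under 20% haemoglobin it was 12 higher and 10 lower, with 11 shared. DESeq2 called 7 higher (0.578%) and 10 lower (0.826%) of 1211 genes (1.4% in all), 11 of them shared with the 17. With single mice left out the edgeR count ran from 4 (without healthy mouse 4) to 23 (without healthy mouse 1), and the other mice gave 7 without sick mouse 3, 9 without sick mouse 6, 11 without sick mouse 1, sick mouse 5 or healthy mouse 3, and 14 without sick mouse 4. In cells with under 15% mitochondrial plus ribosomal RNA-like counts 1 gene was called.

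Ifi27l2a, an interferon-stimulated gene of the Ifi27 family (chr12:103442167-103443680, GRCm38), stood at 787, 484, 489.8, 430.0 and 427 CPM in sick mice 1, 3, 4, 5 and 6, against 195, 52.5 and 0 CPM in healthy mice 1, 3 and 4. All sick mice lay above all healthy mice, and sick mouse 1 stood highest. It averaged 524 ± 150.0 CPM in sick mice (SD, n = 5) and 82.6 ± 101 CPM in healthy mice (SD, n = 3) (log2 fold change 2.14, SE 0.61, adjusted p = 0.0472 by edgeR). The call was lost without sick mouse 4, sick mouse 5, sick mouse 6, healthy mouse 3 or healthy mouse 4 (adjusted p = 0.0529 to 0.194 by edgeR), the gene was not tested without sick mouse 1 or 3, and log2 fold changes ran from 1.60 to 3.15 over 18 alternatives.

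H2-K1 (chr17:33996017-34000347), the heavy chain of the classical class I molecule K, stood at 637, 610.4, 489.8, 452 and 522 CPM in sick mice 1, 3, 4, 5 and 6, against 195, 105 and 89.0 CPM in healthy mice 1, 3 and 4. The groups did not overlap. It averaged 542 ± 79.0 CPM in sick mice (SD, n = 5) and 129.8 ± 57.4 CPM in healthy mice (SD, n = 3) (log2 fold change 1.64, SE 0.45, adjusted p = 0.0463 by edgeR), and the call was lost without sick mouse 1, sick mouse 3, sick mouse 4, sick mouse 6, healthy mouse 1, healthy mouse 3 or healthy mouse 4 (adjusted p = 0.0616 to 0.166 by edgeR). H2-D1, the other classical heavy chain, averaged 1463 ± 463 CPM in sick mice (SD, n = 5) and 665 ± 165 CPM in healthy mice (SD, n = 3) and did not pass (log2 fold change 0.77, SE 0.32, adjusted p = 0.208 by edgeR). B2m, their light chain, did not pass either (adjusted p = 0.627 by edgeR). Of 23 class I presentation genes 5 were tested, 1 rose and none fell, where 2.13% of all 235 genes rose. The 1 that rose, H2-K1, reached the level of the low-count filter in sick mice only, so this count is description. The median log2 fold change of the 5 was 0.37, beside -0.02 over all 235 genes. The 23 listed genes had 3607 to 6589 summed CPM in sick mice, against 2152 to 4363 in healthy mice.

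Ltf, the iron-binding lactotransferrin of secondary granules, stood at 2772, 2252, 1648, 1118 and 2230.1 CPM in sick mice 1, 3, 4, 5 and 6, against 586, 525 and 178 CPM in healthy mice 1, 3 and 4 (log2 fold change 1.76, SE 0.40, adjusted p = 0.0174 by edgeR). Wfdc21, a secreted protein abundant in neutrophils, averaged 1322 ± 641 CPM in sick mice (SD, n = 5) and 264 ± 135 CPM in healthy mice (SD, n = 3) (log2 fold change 1.80, SE 0.52, adjusted p = 0.0486 by edgeR). Ifitm6, a member of the interferon-induced transmembrane family, averaged 1165 ± 481 CPM in sick mice (SD, n = 5) and 290.3 ± 99.5 CPM in healthy mice (SD, n = 3) (log2 fold change 1.53, SE 0.43, adjusted p = 0.0472 by edgeR). In CPM, which leaves out the TMM scaling factors of the test, the groups did not overlap for any of these 3 genes. Overlap on the scale of the test was not examined. Over all genes with at least 10 counts, 6.14% had every sick mouse above every healthy mouse. The call of Ltf was lost without healthy mouse 4 (adjusted p = 0.138 by edgeR), that of Wfdc21 without sick mouse 1, sick mouse 3, sick mouse 4, sick mouse 6, healthy mouse 1 or healthy mouse 4 (adjusted p = 0.0611 to 0.214 by edgeR), and that of Ifitm6 without sick mouse 1, sick mouse 3, sick mouse 5, sick mouse 6, healthy mouse 1, healthy mouse 3 or healthy mouse 4 (adjusted p = 0.0509 to 0.195 by edgeR). Ltf passed in 17 of 24 alternatives, with log2 fold changes of 0.17 to 2.94 and adjusted p-values of 0.0015 to 0.99 (by edgeR, or DESeq2 in 1 of them). Wfdc21 passed in 8 of 24 alternatives, with log2 fold changes of 0.29 to 3.08 and adjusted p-values of 0.00396 to 0.966 (by edgeR, or DESeq2 in 1 of them). Ifitm6 passed in 6 of 24 alternatives, with log2 fold changes of 1.16 to 2.46 and adjusted p-values of 0.0198 to 0.485 (by edgeR, or DESeq2 in 1 of them). Beside them, the 15 neutrophil markers summed to 47044 to 116797 CPM in gated cells of sick mice, against 25445 to 36744 CPM in those of healthy mice. In the remaining cells they averaged 143678 and 74508 CPM. The part of neutrophil RNA in the rise of Ltf, Wfdc21 and Ifitm6 was not tested. Of 8 tested neutrophil markers 2 rose and none fell by edgeR, where 5 of all 235 genes rose (2.13%). Neither of the 2, Ltf and Wfdc21, would have passed the low-count filter on the healthy mice, so this count is description. DESeq2 called 5 of 12 higher, where 7 of all 1211 genes were (0.578%). Camp and Ngp, 2 further granule proteins, were among them (adjusted p = 0.0148 for each by DESeq2, against 0.132 and 0.149 by edgeR). With no filter edgeR called 6 of 15 higher, where 15 of all 13709 genes were. In CPM, groups did not overlap for Camp or Ngp, and all 15 markers were lower in gated than in remaining cells.

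**Figure D4:**
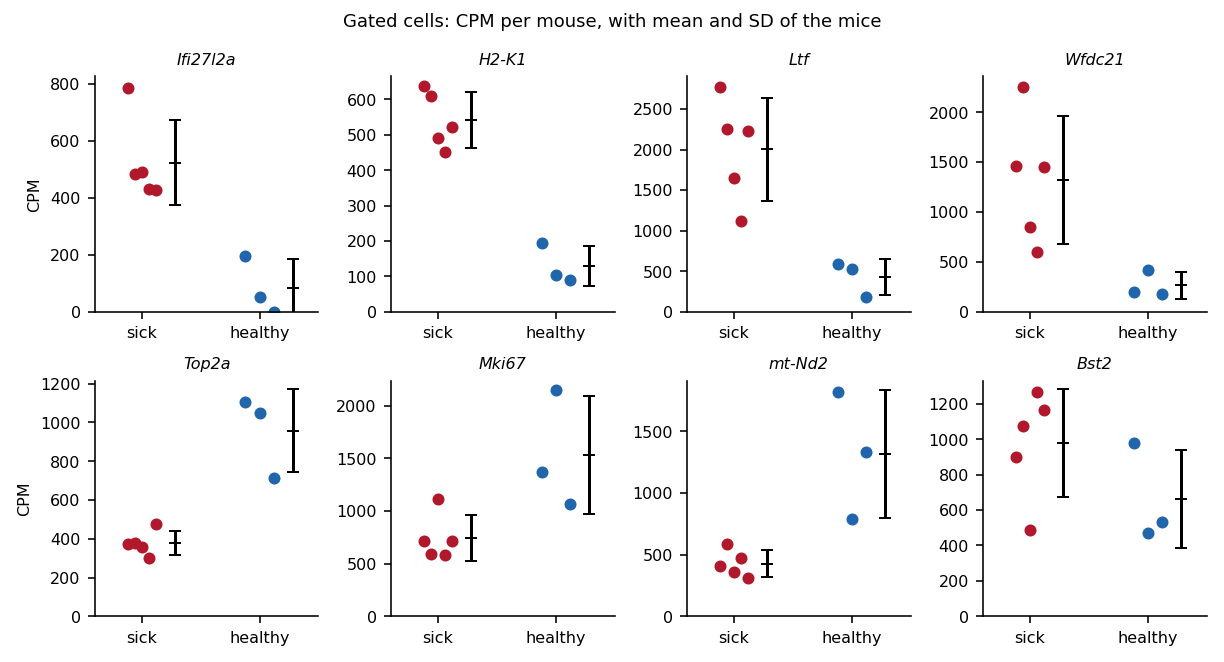
CPM of 8 genes in gated cells (y axis, each panel from 0) for 5 sick and 3 healthy mice (points), with mean and SD at the right of each group. Sick and healthy mice do not overlap for Ifi27l2a, H2-K1, Ltf, Wfdc21, Top2a and mt-Nd2, and they overlap for Mki67 and Bst2.

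Interferon-stimulated genes were at low counts, so few could be tested. Of 69 listed genes with a row, 3 passed the filter on low counts. Ifi27l2a rose, and Bst2 and Trim30a did not pass the test. The filter asks for a minimum level in at least 3 mice, and Ifi27l2a reached that level in sick mice only. Its rise is therefore no support for a rise of the list. Bst2 (chr8:71534255-71537456) stood at 899, 1074, 489.8, 1269 and 1162 CPM in sick mice 1, 3, 4, 5 and 6, against 977, 472 and 534 CPM in healthy mice 1, 3 and 4 (log2 fold change 0.24, SE 0.33, adjusted p = 0.797 by edgeR). Trim30a averaged 503 ± 197 CPM in sick mice (SD, n = 5) and 325 ± 227 CPM in healthy mice (SD, n = 3) (adjusted p = 0.826 by edgeR). Summed over the list, CPM was 4809 to 7904 summed CPM in sick mice, against 1779 to 3711 in healthy mice, and the groups did not overlap. Of the 30 members with at least 10 counts, 26 had a higher mean CPM in sick mice, where 63.0% of all such genes did, and 7 were higher in every sick mouse than in any healthy mouse (background 6.14%). In the remaining cells the list averaged 4813 summed CPM in sick mice and 1573 in healthy mice.

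Members below the filter are given as counts. The genes given here were chosen after their values were seen, so their order over mice is description only. Of the 69 listed genes, 34 had counts in sick mice and none in healthy mice, whose summed counts were lower. The same held for 8 of 15 listed NF-kB genes, 8 of 28 genes of endosomal sensing and 1 of 37 secretory pathway genes. The share over all genes was not computed, so the 34 do not set the list apart. Irf7, the factor that drives the interferon genes of this lineage, had 4, 6, 1, 4 and 6 counts in sick mice 1, 3, 4, 5 and 6, against 0, 0 and 0 in healthy mice 1, 3 and 4. With a floor of 3 counts set for the healthy group, the ratio of summed shares was 1.72. That ratio pools counts over mice and leaves out the spread between them. Ifi44 had 5, 5, 2, 5 and 4 counts in sick mice 1, 3, 4, 5 and 6, against 0, 0 and 0 in healthy mice 1, 3 and 4, and the same ratio of 1.72 against that floor. Ifitm3, which blocks the entry of viruses, had 12, 21, 9, 14 and 10 counts in sick mice 1, 3, 4, 5 and 6, against 3, 0 and 0 in healthy mice 1, 3 and 4, a ratio of summed shares of 5.42 with a 95% counting interval of 1.78 to 26.9. Rsad2, the antiviral radical enzyme viperin, had 6, 5, 6, 23 and 24 counts in sick mice 1, 3, 4, 5 and 6, against 0, 3 and 3 in healthy mice 1, 3 and 4. For Irf7, Ifi44 and Ifitm3 every sick mouse lay above every healthy mouse in CPM, and for Rsad2 the groups overlapped.

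Interferon genes themselves were not seen. Ifnb1 was the single type I or III interferon gene of the list with a row, and 0 of 221 gated cells had a count of it, which allows a share of up to 1.36%, a limit on cells with a count at this depth and not on cells that express the gene. Of 28 genes of endosomal nucleic acid sensing 3 were tested, and none rose or fell, with 2761 to 5769 summed CPM in sick mice, against 2099.6 to 6707 in healthy mice. Of 18 genes of the interferon receptor, the JAK kinases and the STAT factors none could be tested. Of 22 lineage transcription factors outside the gate none could be tested either, and 4 tested markers of the lineage did not pass. Plac8 came nearest, at 1683 ± 478 CPM in sick mice (SD, n = 5) and 754 ± 314 CPM in healthy mice (SD, n = 3) (log2 fold change 0.81, SE 0.32, adjusted p = 0.194 by edgeR).

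**Figure D5:**
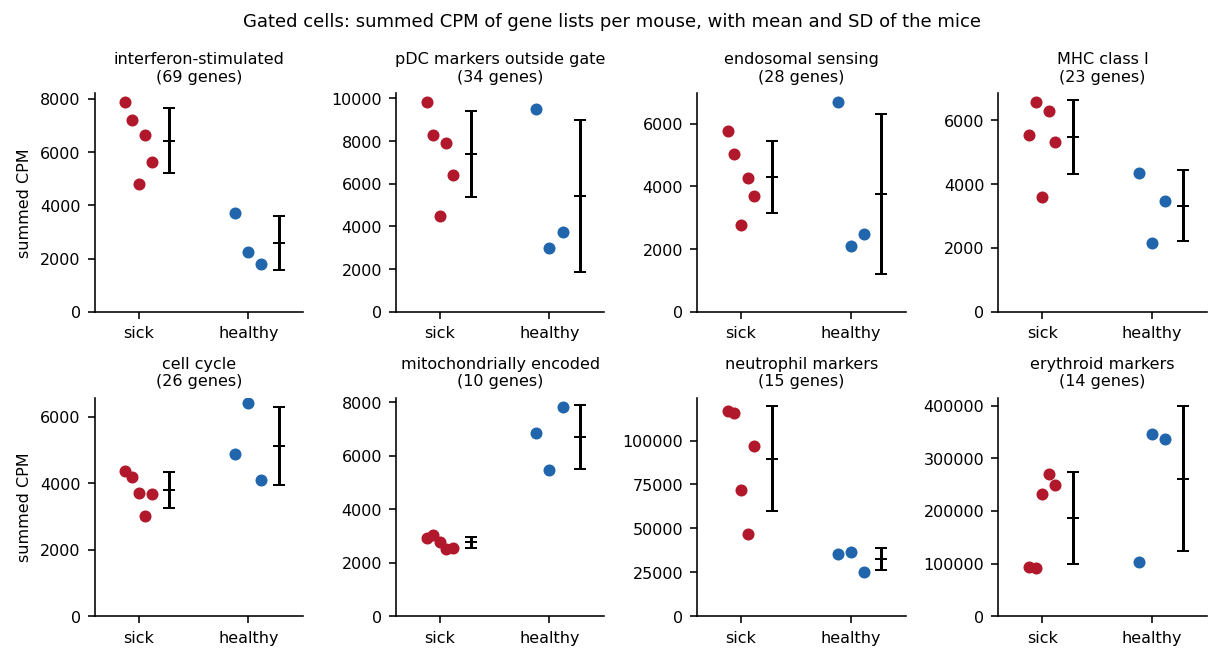
Summed CPM of 8 gene lists in gated cells (y axis, each panel from 0) for 5 sick and 3 healthy mice (points), with mean and SD at the right of each group. In summed CPM, sick mice lie above healthy mice for interferon-stimulated genes and neutrophil markers and below them for mitochondrially encoded genes. The groups overlap for the other 5 lists. CPM leaves out the scaling factors that the test of genes used.

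The proliferation genes Top2a and Mki67 fell. Top2a (chr11:98992943-99024189), the topoisomerase that untangles replicated DNA, stood at 375, 379, 356, 301 and 474 CPM in sick mice 1, 3, 4, 5 and 6, against 1107, 1049.8 and 712 CPM in healthy mice 1, 3 and 4. No sick mouse reached a healthy one, and the means were 377 ± 62.7 CPM in sick mice (SD, n = 5) and 956 ± 214 CPM in healthy mice (SD, n = 3) (log2 fold change -1.75, SE 0.31, adjusted p = 0.00365 by edgeR). The call held with each single mouse left out. Top2a passed in 16 of 21 alternatives, with log2 fold changes of -2.05 to -0.49 and adjusted p-values of 0.00218 to 0.706 (by edgeR, or DESeq2 in 1 of them). It did not pass with Siglech not asked, where the log2 fold change was nearest to 0, with no filter, with the replicate block or in either setting without healthy mice 3 and 4. Mki67 (chr7:135689784-135716361), which coats mitotic chromosomes, stood at 712, 589, 1113, 581 and 712 CPM in sick mice 1, 3, 4, 5 and 6, against 1367, 2152 and 1068 CPM in healthy mice 1, 3 and 4, and sick mouse 4 overlapped with healthy mouse 4. It averaged 741 ± 217 CPM in sick mice (SD, n = 5) and 1529 ± 560.0 CPM in healthy mice (SD, n = 3) (log2 fold change -1.53, SE 0.38, adjusted p = 0.0293 by edgeR). The call of Mki67 was lost without sick mouse 3, sick mouse 5, sick mouse 6, healthy mouse 3 or healthy mouse 4 (adjusted p = 0.0529 to 0.294 by edgeR). Of 26 cell cycle genes 4 were tested, 2 fell and none rose (median log2 fold change -0.96), where 5.11% of all tested genes fell. The other 2, Hmgb2 and Tubb5, had adjusted p-values of 0.997 and 0.656 by edgeR. The list summed to 3010.1 to 4383 summed CPM in sick mice, against 4093 to 6404 in healthy mice. When Siglech was not asked of the cells, Mki67 had a log2 fold change of 0.29 (adjusted p = 0.934 by edgeR, in a range of 0.00364 to 0.934 over its alternatives), so its direction turned. The promoters of both genes are shown because they are the called genes of the list. The RefSeq windows of 250 bases before to 50 after the gene start (GRCm38.p6) are printed in the direction of the gene, with CCAAT or its reverse complement ATTGG in capitals, for Top2a (chr11:99024140-99024439, minus strand) and Mki67 (chr7:135716330-135716629, minus strand).
Top2a: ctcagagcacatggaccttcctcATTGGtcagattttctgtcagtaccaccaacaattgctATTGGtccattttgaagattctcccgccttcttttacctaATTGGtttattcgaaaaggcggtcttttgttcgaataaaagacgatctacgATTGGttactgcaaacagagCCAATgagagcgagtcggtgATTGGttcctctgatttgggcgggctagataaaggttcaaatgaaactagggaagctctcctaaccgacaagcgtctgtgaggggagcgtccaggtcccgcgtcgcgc
Mki67: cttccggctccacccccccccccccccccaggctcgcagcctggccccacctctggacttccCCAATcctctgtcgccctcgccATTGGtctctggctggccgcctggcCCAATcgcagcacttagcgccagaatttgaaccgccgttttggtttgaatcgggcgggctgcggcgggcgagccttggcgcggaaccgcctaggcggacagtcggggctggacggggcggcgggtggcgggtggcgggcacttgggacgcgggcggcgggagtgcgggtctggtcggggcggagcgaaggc
The window of Top2a held 6 of these boxes and that of Mki67 3, counted on both strands without overlap. At least 1 box stood in 18 of the 22 cell cycle genes with a window and in 37.4% of all 32851 windows. The letters GAAA, any 2 bases and GAAA, on either strand, the core of the element through which interferon raises genes, stood in 3.44% of all windows and in 26 of 53 listed interferon-stimulated genes. H2-K1, Ltf and Ifitm6, the risen genes with a window, held no exact match to these letters. Near matches were not counted, so an element with other letters would be missed.

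Mitochondrially encoded genes fell in the gated cells of sick mice. The mitochondrial percent given above sums these genes in the same cells, so it is not a separate observation. All 6 tested genes of the protein-coding list fell, where 5.11% of all tested genes did, with a median log2 fold change of -1.70. mt-Nd2, a subunit of respiratory complex I, averaged 428 ± 109 CPM in sick mice (SD, n = 5) and 1315 ± 518 CPM in healthy mice (SD, n = 3) (log2 fold change -1.94, SE 0.29, adjusted p = 0.00154 by edgeR). mt-Cytb of complex III averaged 442 ± 132 CPM in sick mice (SD, n = 5) and 1339 ± 697 CPM in healthy mice (SD, n = 3), and mt-Rnr1, the small ribosomal RNA of mitochondria, 9682 ± 3026 CPM in sick mice (SD, n = 5) and 21674 ± 496 CPM in healthy mice (SD, n = 3). In the remaining cells mt-Nd2 also fell, with a log2 fold change of -1.83 (adjusted p = 0.0196 by edgeR), and the difference between the changes did not pass (adjusted p = 0.924 by edgeR). The calls in gated cells were lost for mt-Cytb without healthy mouse 4 (adjusted p = 0.156 by edgeR) and for mt-Rnr1 without sick mouse 3, sick mouse 6, healthy mouse 3 or healthy mouse 4 (adjusted p = 0.0641 to 0.178 by edgeR). Gm42418, a ribosomal RNA-like transcript, averaged 14079 ± 6535 CPM in sick mice (SD, n = 5) and 37551 ± 12199 CPM in healthy mice (SD, n = 3) (log2 fold change -1.91, SE 0.53, adjusted p = 0.0463 by edgeR), a call lost without sick mouse 1, sick mouse 3, sick mouse 5, sick mouse 6, healthy mouse 3 or healthy mouse 4 (adjusted p = 0.0615 to 0.212 by edgeR). Mir6236 averaged 1843 ± 936 CPM in sick mice (SD, n = 5) and 7139 ± 3206 CPM in healthy mice (SD, n = 3) and CT010467.1 585 ± 204 CPM in sick mice (SD, n = 5) and 1998 ± 393 CPM in healthy mice (SD, n = 3), and both fell (adjusted p = 0.00568 and 0.00154 by edgeR).

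Other programmes gave no call. Among genes of the secretory pathway and endoplasmic reticulum, which is large in this lineage, 5 of 37 were tested and none passed, with Hsp90b1 at 1413 ± 367 CPM in sick mice (SD, n = 5) and 1336 ± 1222 CPM in healthy mice (SD, n = 3). None of 5 tested lysosomal genes passed, the nearest being Npc2, a cholesterol carrier, at 397 ± 57.5 CPM in sick mice (SD, n = 5) and 727 ± 359.6 CPM in healthy mice (SD, n = 3) (adjusted p = 0.0771 by edgeR). None of 7 tested heat-shock and immediate-early genes passed. Fos averaged 458 ± 284 CPM in sick mice (SD, n = 5) and 112 ± 74.2 CPM in healthy mice (SD, n = 3) (adjusted p = 0.233 by edgeR). The 2 tested genes of MHC class II presentation and costimulation and the 6 of surface receptors and adaptors did not pass either. No gene of the cytokine and chemokine list reached the filter. Among markers of other cells, none of 6 tested erythroid, 3 monocyte and 2 early B-lineage genes passed.

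The last comparisons asked whether the change between sick and healthy mice differed between gated cells and other cells of the same joints. Against all remaining cells, 2 of 235 genes were called by the edgeR interaction test (0.851%), both with a lower change in gated cells. Each difference comes from 1 fit over both kinds of cells with the mouse as a block, and the change within each kind from its own fit and scaling, so a difference need not equal 1 change minus the other. Top2a changed by a log2 of -1.75 in gated cells and -0.29 in remaining cells, a difference of -1.31 (adjusted p = 0.0479 by edgeR). For CT010467.1 the difference was -1.19 (adjusted p = 0.0479 by edgeR). Neither call held when any single mouse other than sick mouse 5 was left out. For Ifi27l2a the log2 fold change was 2.14 in gated and 3.14 in remaining cells, a difference of -0.64 with SE 0.73 that did not pass (adjusted p = 0.888 by edgeR). Bst2 changed by 0.24 in gated and 1.59 in remaining cells, and that difference did not pass (adjusted p = 0.428 by edgeR). Against early B-lineage cells the edgeR test called 0 of 215 genes, with 30 at an unadjusted p under 0.05. Against classical monocytes it called 0 of 233, with 20 at an unadjusted p under 0.05. DESeq2's size factors gave 0 calls in both.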

How the data were processed

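Seq-Well single-cell RNA-seq was done on whole joints of 9 mice. Per the labels' protocols, reads of several sequencing rounds were merged per sample and processed with bcl2fastq, Picard, the Drop-seq core protocol (version 1.0.1) and STAR. The submitters' processing notes name GRCm38 and mm9, and the labels GRCh38. The authors deposited 1 table of raw counts, 24296 genes in 16751 cells, and all values were whole and not negative. The lowest total of a deposited cell was 397 counts, the fewest genes 199 and the highest mitochondrial percent 19.9%. No doublet caller was run.

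Cells were gated on counts as given above. Counts were summed per mouse, and mice with at least 10 gated cells were compared with edgeR 4.0.16 (filterByExpr, TMM, quasi-likelihood test, limma 3.58.1, R 4.3.3), with Benjamini-Hochberg adjustment over all tested genes at 0.05. Differences of change were tested as an interaction with the mouse as a block, over genes that passed the filter in both kinds of cells. That filter replaced one over both kinds together, which shifted the median difference in simulated data, after its calls had been seen; the closing section gives those counts. Shares and quality measures were compared by exact permutation (scipy 1.17.1, pandas 2.3.3, numpy 2.4.6, Python 3.11.15). Each SE beside an edgeR value was derived as the size of the log2 fold change over the square root of the test's F statistic. edgeR itself does not report it. DESeq2 1.42.0 was an alternative. Tested on simulated data over 285 genes, 6 of 33 (18.2%) 2-fold and 43 of 53 (81.1%) 4-fold changes between sick and healthy gated cells were called, and 4 unchanged genes were called as well. For the difference against remaining cells the shares were 6.06% and 66.0%, with 2 unchanged genes called. Median errors in log2 fold change were -0.3 for the 2-fold and -0.15 for the 4-fold changes between sick and healthy gated cells. For the difference against remaining cells they were -0.2 and -0.15. The part of such an error in the calls from the mice was not tested. The simulation drew all mice from a single pooled profile, with the same spread for every gene and no effect of the single mouse. It left out the differences in haemoglobin share between mice, so its rates need not hold for the mice here.

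Named were, in gated cells, up to 15 called genes per direction with a mean of at least 50 CPM, Bst2, and up to 4 tested members of each list by smallest p. Also named were up to 5 called interactions per direction and the 20 largest ratios of gated to remaining cells; not all list members are discussed in the text, and some genes that the rule takes are not reported here. Genes given as counts below the filter were chosen after their values were seen. The members and lists were chosen with earlier results of these data known. Replicates are separate mice. Gene positions are from GENCODE M21 by symbol. The depth of the summed counts, 11240 to 47506 per mouse, limits tests to abundant genes.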

Additional observations from a re-analysis of the deposited data

Results flagged for a closer look

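Single mice stood far from the others of their group in 7 of 66 groups of values examined, where chance gives about 1 in 20. The share of gated cells was highest in sick mouse 5, at 1.90%. In the gated cells of sick mice, Cd24a was lowest in sick mouse 5 at 172 CPM and Ctss lowest in sick mouse 4 at 312 CPM. Sick mouse 1 was highest for Ifi27l2a and for mt-Co1, each at 787 CPM. Mki67 was highest in sick mouse 4 at 1113 CPM, and mt-Nd1 lowest in sick mouse 5 at 366 CPM.

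The change between sick and healthy mice differed between gated and remaining cells for CT010467.1 (difference in log2 fold change -1.19) and Top2a (-1.31), by the edgeR interaction test.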

How the results depend on the processing

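The share of gated cells kept its direction under the other alternatives but was -0.0614 percentage points in cells with at least 400 genes; with single mice left out it ran from 0.359 to 0.683. It was 0.201 in cells under 20% haemoglobin, 0.234 with Siglech of 2 or more, 0.240 with cells thinned to 500 counts and 1.12 among cells under 5% haemoglobin, none of which passed. It passed without healthy mouse 1 (0.683) and in cells under 15% mitochondrial plus ribosomal RNA-like counts (0.653). The mitochondrial, ribosomal RNA-like and haemoglobin percents kept their direction. The median count per cell differed by -523 in cells with at least 400 genes and ran from -16.8 to 80.2 with single mice left out, below 0 without sick mouse 4, sick mouse 6 or healthy mouse 4; median genes differed by -17.2 in cells with at least 400 genes. The cause of these turns was not tested.

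The 17 genes called in gated cells became 4 to 23 with single mice left out, lowest without healthy mouse 4. They became 7 with counts thinned, 7 without mitochondrial, ribosomal RNA-like and haemoglobin genes, 5 with Siglech of 2 or more, 3 without the cells with most counts, 2 in cells with at least 400 genes and 1 in cells under 15% mitochondrial plus ribosomal RNA-like counts. There were 0 calls without healthy mice 2, 3 and 4, where healthy mouse 1 stood alone and was assumed to vary like the sick mice (84 genes at an unadjusted p under 0.05) and 0 with Siglech not asked (43), by edgeR. Without healthy mice 3 and 4 and with no minimum of cells there were 6. The replicate numbers did not pair the mice (correlations of deviations 0.205, -0.214 and 0.199 for numbers 1, 3 and 4). With the replicate number as a block there were 0 (38 at an unadjusted p under 0.05), and 0 against remaining cells (19). At least 20 gated cells per mouse left no healthy mouse, and leaving out cells with at least 5 counts of neutrophil genes or at least 10 of haemoglobin left 1 cell (share difference 0.00955), so neither was run for genes. The alternatives on haemoglobin under 20%, Siglech not asked, healthy mice 3 and 4, and single mice left out of the last comparisons and quality measures were chosen after seeing the data.

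The 2 differences against remaining cells became 0 to 3 with single mice left out, and 11 with no filter. With the filter over both kinds of cells together, used first and replaced after its calls were seen, there were 8 of 8968 genes, none of them shared with the 2, all positive, in data whose differences were shifted. That filter gave 1 call against monocytes. With single mice left out, 0 to 1 genes were called against early B-lineage cells and 0 to 3 against monocytes.

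Over 1209 values of named genes under alternatives, 879 kept direction and side of the threshold, 229 were no longer past it, 15 newly passed and 86 changed sign. Those that changed sign, none past the threshold, are given as log2 fold changes. By DESeq2's test: Ctsb 0.10, Hmgb2 0.26, Hsp90b1 0.082, Hspa5 0.11, Rnase6 0.18. With no filter on low counts: Canx 0.00707, Cd74 0.34, Ctsb 0.66, Ctss 0.56, Hmgb2 0.83, Hsp90b1 0.61, Hspa5 0.67, Laptm5 0.35, Mpeg1 0.44, Pdia3 0.45, Rnase6 0.74, Tubb5 0.43. With no minimum of cells per mouse: Hmgb2 0.0488, Hspa5 0.0488, Rnase6 0.0385. With counts thinned to the lowest mouse: Bst2 -0.0224, Ctsb 0.20. Without healthy mice 2, 3 and 4: Canx 0.00759, Car2 1.94, Cd24a 0.86, Hba-a1 1.26, Hba-a2 1.40, Hmgb2 0.97. With the replicate block: Bst2 -0.0634, Hmgb2 0.11, Hsp90b1 0.13, Mpeg1 0.23. With Siglech of 2 or more: Rnase6 0.075. With a gate sum of 3 or more: Car2 0.36, Hmgb2 0.86, Rnase6 0.23, Spcs2 -0.0595. In cells with at least 400 genes: Hmgb2 0.31. In cells under 15% mitochondrial plus ribosomal RNA-like counts: Cox4i1 -0.21, Ctss 0.23, Hspa5 0.10, Igkc -0.0941, Mpeg1 0.15, Srgn -0.0662. Without the 5% of cells with most counts: Igkc -0.028. With Siglech not asked: Camp -0.69, Cox4i1 -0.30, Ctsb 0.20, Hsp90b1 0.29, Hspa5 0.29, Ier2 -0.00145, Junb -0.16, Lyz2 -0.33, Mki67 0.29, Mpeg1 0.26, Ngp -0.049, Npc2 0.64, Pdia3 0.59, Rnase6 0.53. In cells under 20% haemoglobin: Ctsb 0.10, Hmgb2 1.73, Hspa5 0.10, Rnase6 0.21. Without healthy mice 3 and 4 and with no minimum of cells: Car2 2.25, Cd24a 0.79, Hba-a1 0.40, Hba-a2 0.59, Hmgb2 0.79, Hspa5 0.0228, Igkc -0.25, Tubb5 0.0462. With single mice left out, the genes that changed sign ran as follows: Cd74 -0.82 to 0.14, Ctsb -0.30 to 0.0493, Hmgb2 -0.43 to 0.48, Hsp90b1 -0.48 to 0.49, Hspa5 -0.29 to 0.19, Igkc -0.10 to 0.83, Laptm5 -0.74 to 0.34, Mpeg1 -0.74 to 0.88, Ptprc -0.37 to 1.40, Rnase6 -0.28 to 0.31, Spcs2 -0.30 to 0.56, Trim30a -0.0388 to 0.58.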

Other observations

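Transcripts of fibroblasts, osteoblasts and muscle were spread unevenly over the gated cells. Listed genes of these cells had 515 counts in the gated cells of sick mouse 4, of which 509 lay in 1 cell with 2447 counts in all and 1 count of Siglech. In sick mice 3 and 5 such genes had 57 and 44 counts, with 24 and 31 in 1 cell each. The other gated cells of these mice, and those of sick mice 1 and 6 and of the healthy mice, held fewer than 10 such counts each.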
